A study of Homo sapiens with 22 samples.

Results

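Transcripts of 10 keratin genes were followed across PC9 lung adenocarcinoma cells and their derivatives: the simple keratins KRT7, KRT8, KRT18 and KRT19, the basal keratins KRT5, KRT6A and KRT17, and the mucosal keratins KRT4, KRT13 and KRT15. They were chosen by name and class, with earlier results of these data known. All 10 are among the 17165 genes of the deposited table. Simple keratins pair to form the filaments of single-layered epithelia, basal keratins mark the attached layer of stratified epithelia, and mucosal keratins mark the layers of wet stratified linings such as the oesophagus. Keratins form filaments as obligate pairs of a type II chain (KRT4, KRT5, KRT6A, KRT7, KRT8) and a type I chain (KRT13, KRT15, KRT17, KRT18, KRT19), such as KRT8 with KRT18 or KRT4 with KRT13. Lung adenocarcinomas are known for simple keratins, KRT7 above all, while basal keratins are used to mark squamous tumours.

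The cells were PC9, an established line of human lung adenocarcinoma whose growth relies on mutant EGFR, a receptor kinase that gefitinib blocks reversibly and WZ4002 covalently. Polyadenylated RNA from 22 libraries fell into 11 groups of 2: parental cells given vehicle or either inhibitor, 2 derivatives named PC9-GR2 and PC9-GR3 (below, GR2 and GR3) given vehicle or WZ4002, gefitinib-tolerant cells given vehicle or gefitinib, and WZ4002-tolerant cells given vehicle or WZ4002. Cells were treated for 24 h, and the dose is labelled 1 mM, although such inhibitors are commonly used far lower, so the unit is doubtful. All groups share the PC9 background, and the labels give neither the genotypes of the derivatives, nor how they and the tolerant cells were derived, nor whether any is a single clone.

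Values are CPM: a gene's reads relative to all reads of its library, scaled to a total of 1 M. The steps between CPM values gave 23.6 to 49.6 M reads per library. Whether the 2 libraries of a group stem from separate cultures is not in the labels, so each p-value reflects the spread between libraries only, and that spread may be technical. The spread of a gene was estimated over all 11 groups, so its standard error is not that of the compared groups alone. The vehicle-treated GR2 pair was the closest, with a chi-square per gene of 3.74. The vehicle-treated GR3 pair, used in the GR3 comparisons, was the furthest apart at 93.2, and the other pairs ran from 21.3 to 70.0. The epithelial markers EPCAM, CDH1, CLDN4 and CLDN7 summed to 600.3 to 1354 CPM in every library. The lung adenocarcinoma markers NKX2-1, NAPSA and SFTPB summed to 0.51 to 30.4 CPM, and the 3 listed squamous markers (TP63, SOX2, KRT14, with DSG3 not listed) to 0.79 to 9.03 CPM. Of the leukocyte markers only CD14 is listed, at 0.1 to 7.22 CPM, the 2 listed endothelial markers summed to 4.69 to 38.0 CPM and the 4 fibroblast markers to 5.51 to 19.0 CPM. In bulk RNA, fewer cells expressing a keratin and less of its RNA per cell cannot be told apart.

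KRT4 and KRT5 lie in the same keratin cluster of chromosome 12 and both rose in the parental cells, as did KRT6A, KRT8 and KRT18 of that cluster. The windows of 250 bases before the start of KRT4 and KRT5 are shown as examples. They are from RefSeq, build GRCh38.p14, on the minus strand, at chr12:52814117-52814366 for KRT4 and chr12:52520395-52520644 for KRT5, and read 5′ to 3′ towards the gene. Capitals mark a match to the CACCC motif on the opposite strand.
KRT4: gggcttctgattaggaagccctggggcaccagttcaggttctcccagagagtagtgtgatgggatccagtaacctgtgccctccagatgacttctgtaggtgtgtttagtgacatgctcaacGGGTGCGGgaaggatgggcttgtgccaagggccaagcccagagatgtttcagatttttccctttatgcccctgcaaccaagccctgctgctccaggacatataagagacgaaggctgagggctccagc
KRT5: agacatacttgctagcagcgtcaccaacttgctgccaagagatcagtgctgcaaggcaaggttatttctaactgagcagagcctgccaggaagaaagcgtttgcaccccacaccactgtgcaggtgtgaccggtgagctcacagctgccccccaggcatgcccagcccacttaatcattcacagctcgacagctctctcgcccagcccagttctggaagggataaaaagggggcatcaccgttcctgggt
The motifs searched on both strands were the TATA box TATAAA, the AP-1 motif TGANTCA, the GC box GGGCGG and the KLF-type motif CCNCACCC. The KRT4 window held 1 match, to CCNCACCC at position -128 from the start, and the KRT5 window held none. The shares over all promoters were counted in 34943 longer windows that also ran past the start. Of these, 11.6% held TATAAA, 7.7% TGANTCA, 44.9% GGGCGG and 18.3% CCNCACCC. The RefSeq table used here also held a window of KRT8, at chr12:52926470-52926719, which held none of the 4 motifs. This window lies inside the RefSeq span of KRT8 (52897191 to 52949860), whereas those of KRT4 and KRT5 adjoin the span of their gene. Any other start of KRT8 was not searched.

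The simple keratins were the most abundant members in vehicle-treated parental cells. Per kilobase of transcript, these cells held a mean of 857.6 CPM of KRT19, 668 of KRT7, 662 of KRT8, 314 of KRT18 and 223 of KRT13. KRT5 followed at 33.7 CPM per kilobase and KRT15 at 21.9, with KRT4 at 1.49 and KRT6A at 0.833. Under inhibitor the order was another: in gefitinib-treated parental cells KRT13, at 1078 CPM per kilobase, was above KRT7 at 589.5 and KRT18 at 532. KRT17 was near the limit of counting, with 1 to 31 recovered reads in a library. The lowest value of the table is 1 recovered read, and 74 genes have it in all 22 libraries, so a value of 1 may stand for no read and every recovered count may hold 1 added read. KRT17 did not pass the filter on low values (1 CPM or more in 2 or more libraries), so 9 members were tested.

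**Figure D1:**
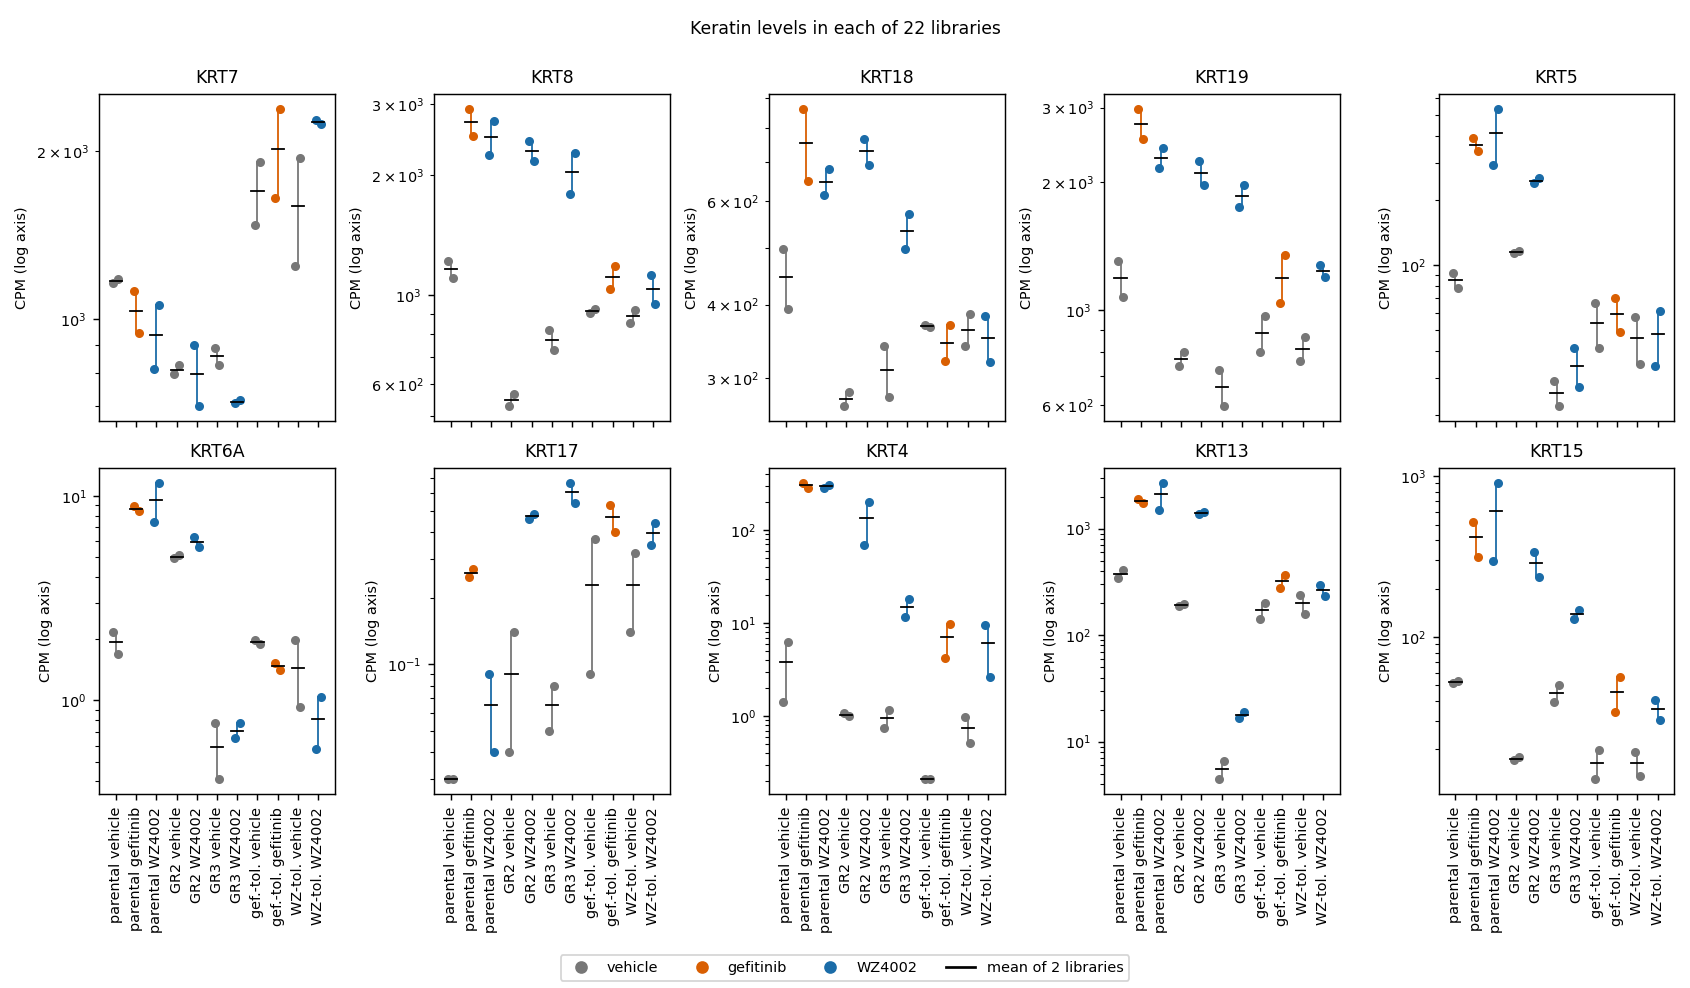
Level of each keratin in each library, as CPM on a log axis that differs between panels, by population and treatment; points are the 2 libraries of a group and black bars their mean. KRT8, KRT18, KRT19 and KRT15 are high in parental, GR2 and GR3 cells under inhibitor, KRT13 is low in all 4 GR3 libraries, and KRT7 is highest in tolerant cells.

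In parental cells, gefitinib and WZ4002 each raised 8 of the 9 tested members and lowered none, with KRT18 rising least and KRT4 most. Log2 differences are of CPM plus a pseudocount of 1, which understates changes at low levels, and a call is an adjusted p under 0.05 in limma over all 15485 tested genes. Of those genes, 45.3% were called under gefitinib (23.5% higher, 21.8% lower) and 47.5% under WZ4002 (25.1% higher, 22.3% lower). The median log2 difference of the 9 members was 1.73 for gefitinib and 1.82 for WZ4002, beside 0.04 over all genes for each. Both responses use the same 2 vehicle libraries, and their values stand side by side.

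KRT8, the type II chain of simple epithelia, had 1216 and 1105 CPM under vehicle, 2921 and 2503 under gefitinib and 2246 and 2725 under WZ4002. Every treated library was above both vehicle libraries, with log2 differences of 1.22 ± 0.16 (SE, adjusted p = 2.894e-05) and 1.09 ± 0.16 (adjusted p = 6.669e-05). KRT19, a type I chain used as a tumour marker, went from 1307 and 1077 CPM to 2975 and 2527 under gefitinib and to 2163 and 2409.6 under WZ4002. Its groups did not overlap, and it rose by 1.21 ± 0.17 (adjusted p = 6.525e-05) and 0.94 ± 0.17 (adjusted p = 0.0004249). KRT18, the partner of KRT8, had 497 and 394 CPM under vehicle, 861 and 649 under gefitinib and 615 and 680.3 under WZ4002. It rose less, by 0.76 ± 0.16 (adjusted p = 0.001695) and 0.55 ± 0.16 (adjusted p = 0.01232). The WZ4002 call for KRT18 was lost without the second vehicle or the second WZ4002 library (adjusted p up to 0.132) and when only these 4 libraries were fitted (0.0797).

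KRT7 was the exception among the simple keratins. It had 1163 and 1180.5 CPM under vehicle, 1121 and 946 under gefitinib and 814 and 1062 under WZ4002. The treated libraries were all lower, but the differences of -0.19 (95% interval -0.65 to 0.28) and -0.33 (-0.80 to 0.13) did not pass the test.

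Both tested basal keratins rose. KRT5, the type II chain of basal layers, had 92.3 and 78.4 CPM under vehicle, 389 and 338 under gefitinib and 293 and 532 under WZ4002. Its rises were 2.08 ± 0.33 (adjusted p = 0.0001594) and 2.20 ± 0.33 (adjusted p = 9.345e-05), with the second WZ4002 library well above the first. KRT6A, a type II chain linked to wounding and proliferation, stayed low, at 2.16 and 1.69 CPM under vehicle, 8.88 and 8.43 under gefitinib and 7.41 and 11.6 under WZ4002. It rose by 1.73 ± 0.22 (adjusted p = 2.313e-05) and 1.82 ± 0.22 (adjusted p = 1.328e-05). KRT17, a type I chain of basal and stressed epithelia, was at the lowest value of the table, 1 recovered read, in both vehicle libraries, and had 6 and 10 recovered reads under gefitinib and 3 and 2 under WZ4002, too few for a fold.

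The mucosal keratins moved furthest. KRT4, a type II chain of wet stratified linings, was at 1.41 and 6.27 CPM under vehicle, 323 and 282 under gefitinib and 282 and 305 under WZ4002. The treated levels did not approach the vehicle levels, the ratio of mean CPM was 78.8 for gefitinib and 76.5 for WZ4002, and the log2 differences were 6.18 ± 0.54 (adjusted p = 1.287e-06) and 6.14 ± 0.54 (adjusted p = 1.281e-06). The size depends on the vehicle library: against the second vehicle library alone the ratio was 48.3 for gefitinib and 46.8 for WZ4002, and against the first alone 214.5 and 208. KRT13, its type I partner, went from 344 and 412 CPM to 1910.5 and 1751 under gefitinib and 1489 and 2709.7 under WZ4002. It rose by 2.28 ± 0.26 (adjusted p = 1.145e-05) and 2.41 ± 0.26 (adjusted p = 6.311e-06). KRT15, a type I chain of basal and progenitor cells that is often grouped with mucosal keratins, went from 51.9 and 53.05 CPM to 519 and 315 under gefitinib and 297 and 911 under WZ4002. The treated pairs were spread, and the rises were 2.92 ± 0.40 (adjusted p = 4.447e-05) and 3.29 ± 0.40 (adjusted p = 1.528e-05).

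The reversible and the covalent inhibitor were also compared directly, at the same labelled dose and time. WZ4002 minus gefitinib gave 0 of 9 members called by limma, 0 at an unadjusted p under 0.05 and 0 by limma-voom, with 0% of all genes called. The differences ran from -0.26 for KRT19 to 0.37 for KRT15. The 95% intervals reached from -1.19 to 1.21 across members, so differences of that size were not resolved.

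**Figure D2:**
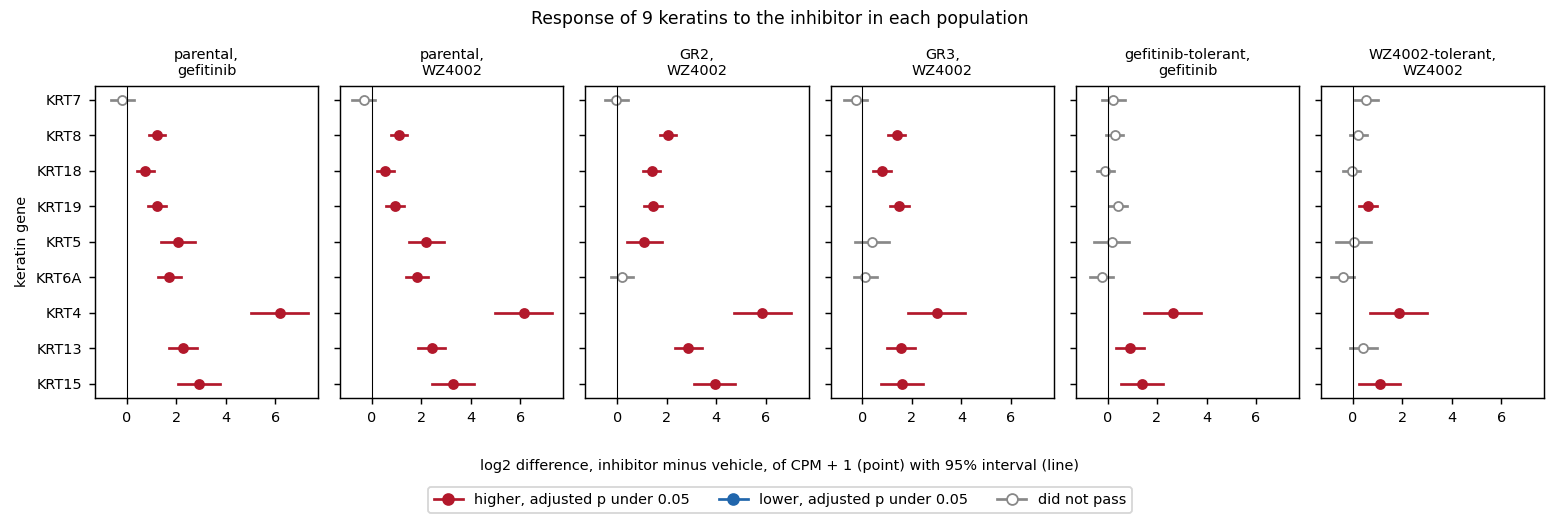
Log2 difference of inhibitor minus vehicle (CPM + 1) for the 9 tested keratins in 6 comparisons; points are estimates, lines 95% intervals, filled points adjusted p under 0.05. KRT4 has the largest rise in each panel, and KRT7 is the member not called in any of them.

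Under WZ4002, 7 of the 9 members rose in GR2 cells, where 55.7% of all genes were called (27.4% higher, 28.3% lower). The median of the members was 1.45, beside 0.01 over all genes. KRT4 went from 1.07 and 1.00 CPM to 69.5 and 198 (5.86 ± 0.54, adjusted p = 4.426e-07), with no overlap although the treated libraries differ. KRT15 went from 17.1 and 17.9 CPM to 339 and 235 (3.94 ± 0.40, adjusted p = 9.954e-07). KRT13 went from 186 and 195 CPM to 1385 and 1426 (2.88 ± 0.26, adjusted p = 3.597e-07). Both KRT13 libraries lay below the 1489 and 2709.7 CPM of parental cells under WZ4002, and both KRT4 libraries below 282 and 305. KRT8 rose from 529.6 and 566 CPM to 2425 and 2169 (2.07 ± 0.16, adjusted p = 6.414e-08). KRT19 rose by 1.45 ± 0.17 (adjusted p = 4.957e-06) and KRT18 by 1.40 ± 0.16 (adjusted p = 4.548e-06). Among basal members, KRT5 went from 114 and 117 CPM to 242 and 253 (1.09 ± 0.33, adjusted p = 0.01048), while KRT6A had 4.98 and 5.11 CPM before and 6.28 and 5.62 after (0.20, 95% interval -0.26 to 0.66). The KRT5 call was lost without the first vehicle or the second WZ4002 library of GR2 (adjusted p up to 0.0517).

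In GR3 cells WZ4002 raised 6 of the 9 members, the 3 simple keratins other than KRT7 and the 3 mucosal ones, where 22% of all genes were called (12.1% higher, 9.87% lower). The members' median was 1.38, beside 0.02 over all genes. KRT19 rose from 724 and 596 CPM to 1755 and 1971 (1.5 ± 0.17, adjusted p = 3.366e-05). KRT8 rose from 818 and 730.01 CPM to 1793 and 2264 (1.38 ± 0.16, adjusted p = 3.311e-05) and KRT18 from 339.8 and 278 CPM to 497 and 571 (0.79 ± 0.16, adjusted p = 0.003269). The groups did not overlap for any of the 3.

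The mucosal members of GR3 rose, KRT4 and KRT13 from low levels. KRT4 went from 0.75 and 1.17 CPM to 11.5 and 18.3 (2.996 ± 0.54, adjusted p = 0.00128), and KRT13 from 4.43 and 6.58 CPM to 16.9 and 18.95 (1.56 ± 0.26, adjusted p = 0.0007425). KRT15 went from 39.2 and 50.3 CPM to 129 and 147 (1.61 ± 0.40, adjusted p = 0.009564). Neither basal member passed: KRT5 differed by 0.39 (95% interval -0.31 to 1.09) and KRT6A by 0.11 (-0.35 to 0.57). KRT17 had 2 and 3 recovered reads under vehicle and 31 and 21 under WZ4002, its highest counts. Fitting only these 4 libraries ended the calls of KRT8 (adjusted p = 0.0547) and KRT18 (0.0954), and that of KRT15 was lost without the first vehicle or the second WZ4002 library (up to 0.0716).

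Tolerant cells showed the fewest rises. In gefitinib-tolerant cells gefitinib raised the 3 mucosal members of the 9, with a median of 0.28 beside 0.01 over all genes. Of all genes 28.7% were called (15.2% higher), so the share of members called in either direction was near that of all genes. KRT4 went from 0.21 CPM in both libraries (7 and 8 reads) to 4.21 and 9.82 (2.63 ± 0.54, adjusted p = 0.002985), KRT13 from 143 and 199 CPM to 277 and 366 (0.91 ± 0.26, adjusted p = 0.01738), and KRT15 from 13.04 and 19.8 CPM to 33.95 and 56.6 (1.39 ± 0.40, adjusted p = 0.01683). All 3 calls were lost without the second gefitinib library (adjusted p up to 0.202), and those of KRT13 and KRT15 also without the first vehicle library. None of the 4 simple keratins passed, with KRT19 the nearest at 0.43 (95% interval 0.07 to 0.79, adjusted p = 0.0707).

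In WZ4002-tolerant cells WZ4002 raised KRT4, KRT15 and KRT19, 3 of the 9, with a median of 0.43 beside 0.03 over all genes. Of all genes 32.6% were called (17% higher), again near the share of members called in either direction. KRT19 went from 759 and 866 CPM to 1278 and 1199 (0.61 ± 0.17, adjusted p = 0.01418). KRT4 went from 0.97 and 0.51 CPM to 9.58 and 2.64 (1.85 ± 0.54, adjusted p = 0.01776) and KRT15 from 19.2 and 13.6 CPM to 40.5 and 30.6 (1.08 ± 0.40, adjusted p = 0.04785). These calls were fragile: KRT15 was lost without any of the 4 libraries, KRT4 without the first WZ4002 library or either vehicle library, and KRT19 without the first library of each group. KRT4 and KRT15 also missed the threshold by limma-voom on recovered reads (adjusted p = 0.0810 and 0.0755).

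Without inhibitor, the populations differed in which keratins they held. GR2 cells had lower KRT8, KRT18, KRT19, KRT13 and KRT15 and higher KRT6A than parental cells, 5 of the 9 lower and 1 higher, where 16.7% of all genes were called (8.98% higher, 7.76% lower). The members' median was -0.68. KRT8, at 529.6 and 566 CPM against 1216 and 1105, was lower by 1.08 on the log2 scale (-1.08 ± 0.16, adjusted p = 0.0003466), and KRT6A, at 4.98 and 5.11 CPM against 2.16 and 1.69, was higher by 1.05 ± 0.22 (adjusted p = 0.004018). KRT15 (-1.53 ± 0.40, adjusted p = 0.01581) and KRT13 (-0.98 ± 0.26, adjusted p = 0.01813) differed alike in direction, as did KRT18 (-0.68 ± 0.16) and KRT19 (-0.62 ± 0.17). Leaving out single libraries left 2 to 4 of the 6 calls, KRT8 and KRT6A among them each time; KRT15 was lost without any of the 4, and KRT13, KRT18 and KRT19 without either GR2 library, KRT13 also without the second parental library and KRT18 and KRT19 also without the first.

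GR3 cells had 6 of the 9 members lower than parental cells and none higher, where 20.8% of all genes were called (9.77% higher, 11.1% lower). The members' median was -0.85. KRT13 stood apart, at 4.43 and 6.58 CPM against 344 and 412, a log2 difference of -5.88 ± 0.26 (adjusted p = 1.565e-09) and a 68.7-fold lower mean CPM. KRT5, at 28.9 and 22.2 CPM against 92.3 and 78.4, was lower too (-1.71 ± 0.33, adjusted p = 0.00172), as were KRT6A (-0.88 ± 0.22, adjusted p = 0.008595), KRT19 (-0.85 ± 0.17, adjusted p = 0.002359), KRT8 (-0.58 ± 0.16, adjusted p = 0.01478) and KRT18 (-0.52 ± 0.16, adjusted p = 0.03246). KRT15 did not differ beyond its error (-0.24, 95% interval -1.08 to 0.61). KRT8, KRT18 and KRT6A lost the call without the first parental or the second GR3 vehicle library, and when only these 4 libraries were fitted these 3 and KRT19 were lost (adjusted p from 0.0625 to 0.202), leaving KRT13 and KRT5.

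GR3 against GR2, which reuses the derivatives' vehicle libraries but no parental one, gave 3 members lower and 2 higher of the 9, where 33.1% of all genes were called (15.6% higher, 17.5% lower). KRT13 was again lowest, at -4.90 ± 0.26 (adjusted p = 4.421e-09), followed by KRT5 (-2.15 ± 0.33, adjusted p = 0.0001421) and KRT6A (-1.94 ± 0.22, adjusted p = 7.414e-06). KRT15 was higher in GR3 by 1.30 ± 0.40 (adjusted p = 0.01977) and KRT8 by 0.50 ± 0.16 (adjusted p = 0.02332). Both higher calls were lost without either GR2 library and without the first (KRT8) or the second (KRT15) GR3 library. KRT8 also missed the threshold without the filter (adjusted p = 0.0545) and with only the libraries compared (0.0789).

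**Figure D3:**
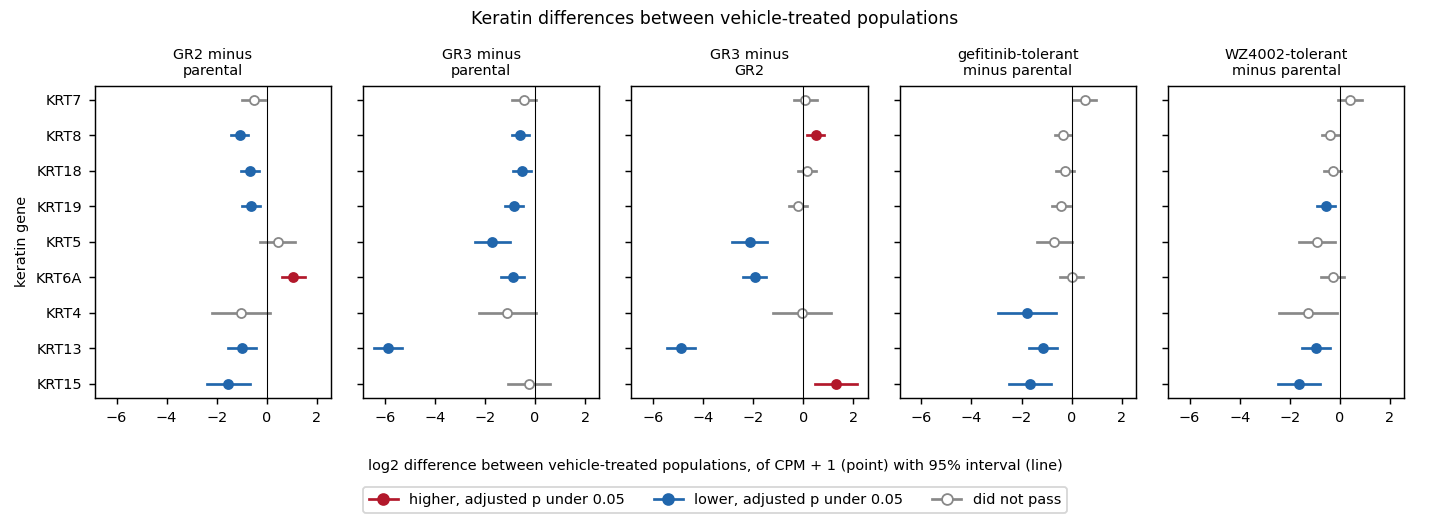
Log2 difference between vehicle-treated populations (CPM + 1) for the 9 tested keratins; points are estimates, lines 95% intervals, filled points adjusted p under 0.05. KRT13 is far to the left in both GR3 panels, at -5.88 against parental and -4.90 against GR2 cells.

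The 2 tolerant populations had 3 of the 9 members lower than parental cells each and none higher, where 19% of all genes were called for gefitinib-tolerant cells (9.39% higher, 9.64% lower) and 18.4% for WZ4002-tolerant cells (8.72% higher, 9.73% lower). These comparisons share the parental vehicle libraries with each other. KRT15 had 13.04 and 19.8 CPM in gefitinib-tolerant and 19.2 and 13.6 in WZ4002-tolerant cells against 51.9 and 53.05 in parental cells (-1.65 ± 0.40, adjusted p = 0.008988, and -1.64 ± 0.40, adjusted p = 0.009537). KRT13 was lower in both (-1.16 ± 0.26 and -0.95 ± 0.26), KRT4 in gefitinib-tolerant cells (-1.79 ± 0.54, adjusted p = 0.0302) and KRT19 in WZ4002-tolerant cells (-0.55 ± 0.17, adjusted p = 0.03507). Without the second parental vehicle library, which held 230 of the KRT4 reads against 51 in the first, the KRT4 difference was -0.99 and no longer passed, as was so without either tolerant library. In gefitinib-tolerant cells KRT13 was lost without the second parental or the first tolerant library, and KRT15 without either parental or the first tolerant library. In WZ4002-tolerant cells KRT13 and KRT15 were lost without either parental or the second tolerant library, and KRT19 without any of the 4.

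KRT7, a simple keratin, was at 1476 and 1912 CPM in gefitinib-tolerant and 1243 and 1940.2 in WZ4002-tolerant vehicle cells. Parental vehicle cells had 1163 and 1180.5 CPM. The tolerant libraries were all above the parental ones, but the differences of 0.52 (95% interval 0.05 to 0.99, adjusted p = 0.1131) and 0.41 (-0.06 to 0.87) did not pass. GR3 cells, at 888 and 828 CPM, were lower than the 2 tolerant populations together (-0.91 ± 0.19, adjusted p = 0.001723). In that comparison 4 of the 9 members were lower and 1 higher, where 33.1% of all genes were called (16.8% higher, 16.3% lower). KRT13 was the largest of these (-4.83 ± 0.23, adjusted p = 1.967e-09), and KRT15 was the higher one (1.41 ± 0.34, adjusted p = 0.005168). The calls of KRT5, KRT6A and KRT15 there were lost without the second GR3 library, and that of KRT5 also without the first library of either tolerant population.

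Whether a response differed between populations was tested as a difference of log2 responses. Most of these tests share the parental libraries, so they are not independent. GR2 cells raised KRT8 by 0.97 ± 0.22 more than parental cells (adjusted p = 0.01631) and KRT18 by 0.85 ± 0.23 more (adjusted p = 0.03793), and raised KRT6A by 1.62 ± 0.31 less (-1.62, adjusted p = 0.005861), 3 of 9 where 6.79% of all genes were called (3.34% higher, 3.45% lower). KRT18 lost the call without each of the 8 libraries in turn other than the second parental vehicle one, and KRT8 without 4 of them, the first parental vehicle library, either GR2 vehicle library and the first GR2 WZ4002 library. KRT18 was also lost in the fit of the compared libraries alone (adjusted p = 0.0524). WZ4002-treated levels of KRT8 overlapped, at 2425 and 2169 CPM in GR2 and 2246 and 2725 in parental cells. Its vehicle levels were lower in GR2, at 529.6 and 566 CPM against 1216 and 1105. KRT18 had 767 and 693 CPM in treated GR2 against 615 and 680 in treated parental cells. Under vehicle it had 269 and 285 CPM in GR2 against 497 and 394 in parental cells.

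The GR3 response differed from the parental one for KRT6A alone (-1.71 ± 0.31, adjusted p = 0.01428), 1 of 9 where 1.29% of all genes were called (0.633% higher, 0.659% lower). With a pseudocount of 0.1 it missed the threshold (adjusted p = 0.0698), as it did by limma-voom (0.113) and with only the compared libraries (0.222). KRT4, at -3.14 (95% interval -4.77 to -1.51), had an adjusted p of 0.0557 and KRT5, at -1.82 (-2.80 to -0.83), one of 0.0653. Against GR2 the GR3 response was smaller for all 3 mucosal keratins, 3 of 9 where 13.6% of all genes were called (6.78% higher, 6.8% lower): KRT4 (-2.87 ± 0.77, adjusted p = 0.02176), KRT15 (-2.33 ± 0.56, adjusted p = 0.01247) and KRT13 (-1.32 ± 0.37, adjusted p = 0.02723). KRT4 and KRT13 missed the threshold by limma-voom (0.157 and 0.0970), and both were lost without either GR2 vehicle library, the second GR2 WZ4002, the second GR3 vehicle or the first GR3 WZ4002 library. KRT13 was also lost without the first GR2 WZ4002 or the second GR3 WZ4002 library, while KRT15 held without each library.

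The tolerant populations responded less. The gefitinib response was smaller in gefitinib-tolerant than in parental cells for KRT6A (-1.97 ± 0.31, adjusted p = 0.004042), KRT4 (-3.54 ± 0.77, adjusted p = 0.0252), KRT8 (-0.94 ± 0.22, adjusted p = 0.03953) and KRT5 (-1.92 ± 0.47, adjusted p = 0.04603), 4 of 9 where 2% of all genes were called (1.07% higher, 0.936% lower). The KRT4 value depends on the pseudocount: with 0.1 it was -2.21 (adjusted p = 0.261) and by limma-voom -1.77 (0.712), and the ratio of mean CPM was 33.4 in tolerant and 78.8 in parental cells. Treated levels of KRT4 were nonetheless far apart, at 4.21 and 9.82 CPM against 323 and 282. KRT8 was lost without any 1 of the 8 libraries, KRT5 without any other than the second gefitinib-tolerant vehicle library, and KRT4 without any other than the second parental vehicle or the second gefitinib-treated tolerant library. KRT6A held without each. With a pseudocount of 0.1 KRT5 also missed the threshold (0.0504), as it did by limma-voom (0.0643), and without the filter KRT8 (0.0882) and KRT5 (0.0667) did.

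WZ4002 raised 6 of the 9 members less in WZ4002-tolerant than in parental cells, where 4.49% of all genes were called (2.1% higher, 2.4% lower). KRT4 (-4.29 ± 0.77, adjusted p = 0.006064), KRT6A (-2.23 ± 0.31, adjusted p = 0.001417), KRT15 (-2.21 ± 0.56, adjusted p = 0.03582), KRT5 (-2.16 ± 0.47, adjusted p = 0.01574), KRT13 (-1.98 ± 0.37, adjusted p = 0.008288) and KRT8 (-0.87 ± 0.22, adjusted p = 0.0372) passed. KRT7 went the other way, at 0.87 (95% interval 0.21 to 1.53, adjusted p = 0.1191). KRT4 and KRT6A kept the call without each library in turn, KRT13 lost it without the second WZ4002 library of tolerant cells (0.0523), and KRT5, KRT8 and KRT15 lost it without either parental vehicle, the second parental WZ4002 or the first tolerant vehicle library. KRT8 and KRT15 also lost it without the second WZ4002-treated tolerant library, and KRT8 without the second tolerant vehicle library. Fitting only the libraries compared left KRT4 and KRT6A. By limma-voom KRT4 (0.113) and KRT15 (0.0558) missed the threshold, and without the filter KRT8 (0.0780) and KRT15 (0.0514) did.

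**Figure D4:**
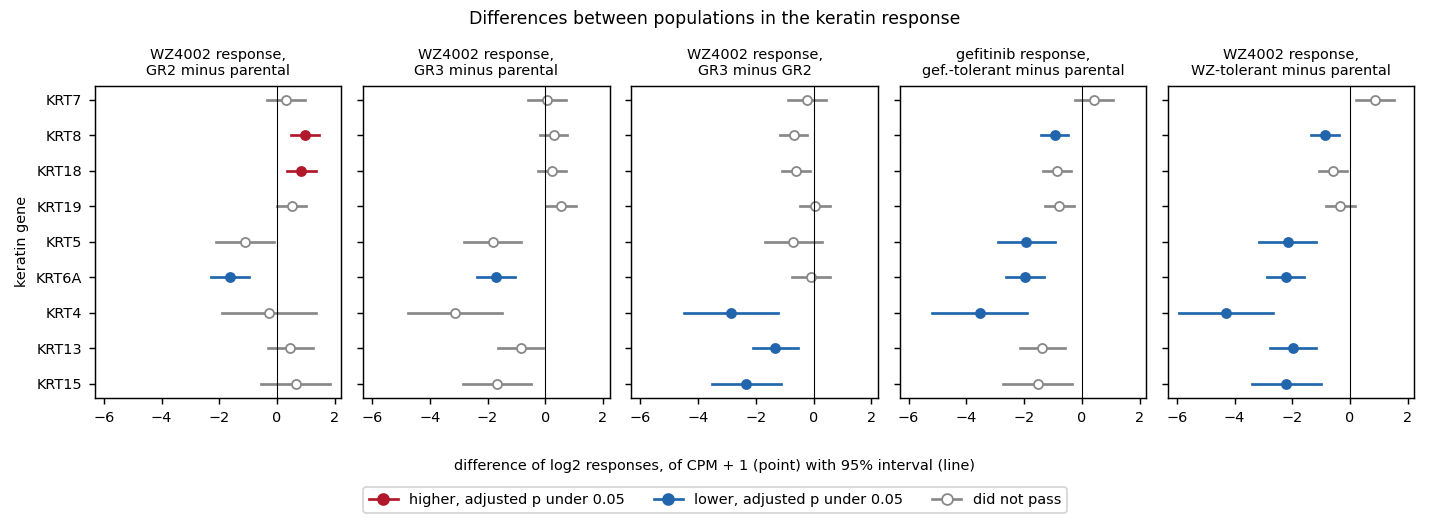
Difference between populations in the log2 response (CPM + 1) for the 9 tested keratins; points are estimates, lines 95% intervals, filled points adjusted p under 0.05. In the WZ4002-tolerant panel 6 members lie to the left of 0 and pass, with KRT4 at -4.29.

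Across the 11 group means of log2(CPM + 1), KRT8 and KRT18 varied together (Pearson r = 0.968), as did KRT5 and KRT6A (0.974) and KRT4 and KRT15 (0.966), whereas KRT13 and KRT4, a known pair, gave 0.654. KRT7 was negative with 7 of the other 8 tested members, from -0.278 with KRT19 to -0.494 with KRT15, and 0.148 with KRT13. These values are descriptions over 11 means that share vehicle groups and treatments. The genes nearest in pattern to KRT8 were its pseudogene rows KRT8P3 (0.998), KRT8P33 (0.997) and KRT8P35 (0.994). Nearest to KRT5 were KRT6A (0.974), RASEF (0.972) and CEP85L (0.967), and to KRT13 RAPGEFL1 (0.985), GMCL1 (0.982) and SH3YL1 (0.981).

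Some members share sequence with other rows of the table. The 10 KRT8 pseudogene rows summed to 11.3 to 13.1% of the KRT8 CPM, 7 KRT18 rows to 3.47 to 7.2% and the KRT19P1 row to 3.75 to 4.57% of theirs. Of the 50-base windows of the GENCODE v29 transcript, 39.7% of KRT8, 39.1% of KRT6A (with KRT6C and KRT6B leading) and 35.1% of KRT18 also occur in other genes, against 0% of KRT4 and 1% of KRT13. KRT8, KRT18 and KRT6A levels may therefore hold or lack reads of these copies, and how far was not tested.

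Other lists of keratin and epithelial genes were read against all genes under gefitinib in parental cells, where 45.3% were called (23.5% higher, 21.8% lower). Of the 13 tested other keratins 5 rose and 1 fell, a share near that of all genes. KRT16, a type I partner of KRT6A, went from 21.6 and 39.96 CPM to 296 and 275 (3.24 ± 0.39, adjusted p = 1.835e-05), KRT9 rose from 0.22 and 0.76 CPM to 4.06 and 5.77 (1.998 ± 0.21), and KRT14, the partner of KRT5, rose from 0.17 and 0.16 CPM to 1.31 and 2.56 (1.30 ± 0.20). Genes of desmosomes, which anchor keratins at cell junctions, were listed with other keratin linkers. Of these 12, 6 were higher and 2 lower, with JUP (1.31 ± 0.19), DSP (1.14 ± 0.17) and PERP (0.88 ± 0.12) named. Of 19 epithelial and squamous transcription factors 9 rose and 0 fell, with the share called in either direction again near that of all genes, among them ELF3, which went from 92.5 and 88.3 CPM to 430.2 and 406 (2.20 ± 0.30), and KLF5 (1.31 ± 0.17). Stratified differentiation genes gave 8 higher and 3 lower of 16, with IVL, the cornified envelope protein involucrin (2.04 ± 0.36), KLK10 (1.78 ± 0.23) and CNFN (1.04 ± 0.15). Of 10 other intermediate filament genes 2 rose and 4 fell, the nuclear lamins LMNB1 (-2.59 ± 0.62) and LMNB2 (-2.28 ± 0.24) among the latter and IFFO2 (1.62 ± 0.33) among the former.

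In GR3 against GR2 vehicle cells the same lists held members called in both directions. Of all genes 33.1% were called (15.6% higher, 17.5% lower). The lists of keratins, desmosome and keratin linker genes, transcription factors and differentiation genes were near that share. Other keratins gave 1 higher and 3 lower of 13, with KRT6B (-2.72 ± 0.58), KRT81, a hair keratin (-2.03 ± 0.40), and KRT16 (-1.32 ± 0.39) lower. Stratified differentiation genes gave 2 higher and 4 lower of 16; SCEL, a cornified envelope precursor, had 1.73 and 2.41 CPM in GR3 against 92.98 and 87.5 in GR2 (-4.90 ± 0.33, adjusted p = 4.901e-08), and SERPINB1 (-2.84 ± 0.21) and EMP1 (-1.98 ± 0.17) were lower too. Of 19 transcription factors 4 were higher, TFAP2C (1.495 ± 0.21) among them, and 3 lower, with GRHL1 (-1.30 ± 0.16) and KLF5 (-1.18 ± 0.17). Desmosome and keratin linker genes gave 1 higher, PKP4 (0.50 ± 0.13), and 3 lower of 12, including PERP (-0.70 ± 0.12) and DST (-0.65 ± 0.18). Other intermediate filament genes gave 2 higher, BFSP1 (1.96 ± 0.29) and SYNM (1.26 ± 0.29), and 3 lower of 10, including LMNA (-0.57 ± 0.12).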

How the data were processed

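Polyadenylated RNA of 22 libraries was used, in 11 groups of 2 named by the labels, and all 22 entered each fit. The submitters' processing notes name STAR, HTSeq and the hg19 build. Tool versions and the strand setting of counting are not given in the sources used here. The authors deposited CPM rounded to 2 decimals, and 0 of them equal 0. The listed genes hold 54.6 to 64.2% of each library's CPM. CPM values fell on whole multiples of the CPM of 1 read, within rounding of 0.005, for 100% of values in every library, against 23.6 to 49.6% by chance, and reads were recovered from these steps. The lowest value in the table is 1 step, held by 467 to 823 genes in a library against 159 to 279 at 2 steps, so the table may carry an added read. The recovered reads are thus an estimate, used for depth, the comparison of replicates, low levels and alternatives.

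Tests used log2(CPM + 1). The filter kept 15485 genes with at least 1 CPM in at least 2 libraries. limma 3.58.1, in R 4.3.3, fitted 11 group means (empirical Bayes, with a variance trend), with 18 contrasts, Benjamini-Hochberg adjustment over all kept genes within each and a threshold of 0.05. In simulated data for the parental gefitinib response (3 runs, 15485 genes, 200 changed) 62% of simulated 2-fold changes and 92% of 4-fold ones were called. Of the calls 4.32% were wrong. In the real response 45.3% of genes were called, far more than were changed in the simulation. These rates may therefore not hold for the real tests. The keratins and other lists were chosen with earlier results of these data known. Named genes are the 10 keratins, the 3 members of each other list with the lowest p in the parental gefitinib response and in GR3 against GR2, and the 3 genes most like the keratin of widest range in each class. 1 gene so chosen is not reported here. Alternatives were the replicate number as a block, another pseudocount, median-of-ratios scaling, no filter, only the libraries compared, each library left out and, added after seeing the data, limma-voom on recovered reads and the subtraction of 1 read from every value. Transcript lengths are of GENCODE v29 and gene positions of RefSeq on GRCh38.p14, since no hg19 genome was used here.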

Additional observations from a re-analysis of the deposited data

Results flagged for a closer look

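The responses to inhibitor that differed between populations in the limma test of the difference are listed here as differences of log2 responses. For WZ4002 in GR2 against parental cells these were KRT8 (0.97), KRT18 (0.85) and KRT6A (-1.62). For WZ4002 in GR3 against parental cells the 1 member was KRT6A (-1.71). For WZ4002 in GR3 against GR2 cells they were KRT4 (-2.87), KRT13 (-1.32) and KRT15 (-2.33). For gefitinib in gefitinib-tolerant against parental cells they were KRT8 (-0.94), KRT5 (-1.92), KRT6A (-1.97) and KRT4 (-3.54); the KRT4 value was -2.21 with a pseudocount of 0.1 (adjusted p = 0.261) and -1.77 by limma-voom (0.712), neither of which passed. For WZ4002 in WZ4002-tolerant against parental cells they were KRT8 (-0.87), KRT5 (-2.16), KRT6A (-2.23), KRT4 (-4.29), KRT13 (-1.98) and KRT15 (-2.21). Groups of 2 libraries are too small for a test of single outlying libraries.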

How the results depend on the processing

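No result changed direction under any alternative run. The counts of called members in the parental gefitinib (8), parental WZ4002 (7 to 8), GR2 WZ4002 (6 to 7) and GR3 WZ4002 (5 to 6) responses changed by 1 or less when any 1 library was omitted. In other comparisons the count without 1 library ranged from 0 to 4 for the gefitinib-tolerant and 0 to 3 for the WZ4002-tolerant response, 2 to 4 for GR2, 3 to 6 for GR3, 0 to 2 for gefitinib-tolerant and 0 to 3 for WZ4002-tolerant against parental cells, 3 to 4 for GR3 against GR2 and 2 to 6 for GR3 against tolerant cells. For differences of responses it ranged from 1 to 3 (GR2 against parental), 1 to 4 (GR3 against parental), 1 to 3 (GR3 against GR2), 1 to 2 (gefitinib-tolerant) and 3 to 6 (WZ4002-tolerant). Limma-voom, chosen after seeing the data, gave 1 member in the WZ4002-tolerant response, 0 in the GR3 minus parental difference and 2 in the gefitinib-tolerant one. Fitting only the libraries compared gave 2 for GR3 against parental, 0 for the GR3 minus parental difference and 2 for the WZ4002-tolerant one. A pseudocount of 0.1 gave 0 and 2 for the GR3 minus parental and gefitinib-tolerant differences, and no filter gave 2 for the latter. With the replicate number as a block, the GR3 minus parental difference gave 2 members in place of 1, and of 80 single-gene calls 80 held. Correlations of deviations between same-numbered libraries ran from -0.464 to 0.633 over 55 group pairs (median 0.051, 20 above 0.1). The numbering therefore did not pair the libraries across all groups, and whether some groups shared a preparation was not tested. Of the same 80 calls, 77 held with the other pseudocount, 72 without a filter, 79 with median-of-ratios scaling, 65 with only the libraries compared, 70 by limma-voom and 80 with 1 read subtracted from every value (also added after seeing the data), and over all omissions of 1 library 270 held and 128 did not. The edgeR and DESeq2 tests planned for recovered reads were not run. The deposited values are CPM, and the recovered reads, which may hold an added read, were not accepted as counts. The limma-voom values rest on the same reads and carry that doubt. With 2 libraries a group, small differences were often not resolved, and KRT17, at 1 to 31 reads, entered only the fit without a filter.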
